A study of Homo sapiens with 6 samples.

Results

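The enzymes that make serine and pass its one-carbon unit through folate were examined in Hep3B, an established human hepatocellular carcinoma cell line, after knockdown of DAGLA. Members were the 10 genes PHGDH, PSAT1, PSPH, SHMT1, SHMT2, MTHFD1, MTHFD2, MTHFD1L, ALDH1L2 and ALDH1L1, found by their Ensembl identifiers among the 29908 genes of the expression table. The genes were listed by name, as enzymes of this pathway. DAGLA encodes diacylglycerol lipase alpha, which makes the endocannabinoid 2-arachidonoylglycerol. mRNA was sequenced in 3 libraries of Hep3B-Con cells, transduced with a control lentivirus that the sample titles call shControl and the series design calls an empty vector, and in 3 libraries of Hep3B-KD cells, transduced with a lentiviral short hairpin RNA called shDAGLA. Both groups were infected at a multiplicity of infection of 5 and selected with puromycin. Each group is thus 1 construct in 1 cell line, and no other hairpin against DAGLA was sequenced. The design calls the libraries biological replicates, but nothing says that they came from separate cultures, so the p-values measure the spread between these libraries, which may be technical.

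Serine is made in the cytosol from a glycolytic phosphoglycerate. PHGDH oxidises it, PSAT1 moves an amino group onto the product, and PSPH removes the phosphate. The hydroxymethyltransferases then split serine into glycine and a one-carbon unit carried by tetrahydrofolate. In mitochondria this is done by SHMT2, and MTHFD2 and MTHFD1L oxidise the unit and release it as formate. In the cytosol MTHFD1 takes formate up again for purine, thymidylate and methionine synthesis, while SHMT1 is the cytosolic hydroxymethyltransferase. ALDH1L2 in mitochondria and ALDH1L1 in the cytosol burn formyl-tetrahydrofolate to carbon dioxide. Dividing cancer cells, liver cancer cells included, are known to rely on these enzymes for nucleotides, and the normal liver is known for high ALDH1L1.

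Levels are FPKM, in which the reads of a gene are divided by its exon length and by the reads of the library. Changes are log2 fold changes of Hep3B-KD against Hep3B-Con on the log2(FPKM + 0.1) scale, which understates the change of low genes, with limma's standard error (SE) and Benjamini-Hochberg adjusted p over the 14221 genes whose mean over the 6 libraries reached 0.5 FPKM. A gene was called at an adjusted p under 0.05. DAGLA itself read 9.42, 9.40 and 9.02 FPKM in Hep3B-Con replicates 1 to 3 and 4.62, 4.46 and 4.78 FPKM in Hep3B-KD replicates 1 to 3, so the targeted gene was lower in every library labelled as knockdown (log2 fold change -0.99, SE 0.0441, limma adjusted p = 5.25e-06). Reads assigned to the genes, recovered from the FPKM values, numbered 16644962 to 17572714 per library in Hep3B-Con and 15861039 to 16593115 in Hep3B-KD. Genes with at least 1 read numbered 22338 to 22605 in Hep3B-Con and 23416 to 23591 in Hep3B-KD. The 13 hepatocyte markers were all above 0.5 FPKM. Their summed level was 5394 to 5521 FPKM in Hep3B-Con and 7641 to 7769 FPKM in Hep3B-KD, with 8 called higher and 4 called lower. Of 6 fibroblast markers 3 were above 0.5 FPKM (COL1A1, LUM and PDGFRB, all called lower), and the list summed to 9.28 to 10.2 FPKM in Hep3B-Con and 5.48 to 5.96 FPKM in Hep3B-KD. Endothelial markers summed to 0.194 to 0.385 FPKM over the 6 libraries. Of 5 leukocyte markers only 3 were among the genes of the expression table. Of these LYZ alone passed the filter, and their sum was 2.08 to 4.04 FPKM. The part of these markers in the results was not tested.

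The 2 groups differed over much of the transcriptome, which sets the background for the enzymes. Of all genes tested, 59.9% were called, 23.8% lower and 36.1% higher in Hep3B-KD. Requiring a fold of at least 2 as well left 8.83%, of which 2.94% were lower and 5.89% higher. Of the 10 enzymes 8 passed the filter on low values. Among these 8, PHGDH, PSAT1, SHMT2, MTHFD2 and MTHFD1L fell, so 5 were lower, and PSPH, SHMT1 and MTHFD1 were called higher, so 3 were higher. MTHFD1L alone also met the fold of 2. The median log2 fold change was -0.65 over the 8 enzymes and 0.11 over all genes tested. In bulk RNA, fewer cells of a type and less RNA per cell cannot be told apart.

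Promoter sequences are shown because 5 of the enzymes fell together and 3 did not. RefSeq windows (GRCh38.p14) were at hand for 7 of the 10 genes, PHGDH, PSAT1, SHMT1, MTHFD1, MTHFD2, MTHFD1L and ALDH1L1, and not for PSPH, SHMT2 and ALDH1L2. Each was searched on both strands over the 250 bases before the start for TGATGNAA, the core of the C/EBP-ATF response element that ATF4 is known to bind, for CACGTG, the E-box that MYC is known to bind, and for CCAAT, the box bound by nuclear factor Y. Capitals mark the matches, which do not overlap each other. First come 4 of the enzymes that fell, then the cytosolic pair, all written 5′ to 3′ on the strand of the gene:
PHGDH (chr1:119711684-119711933, plus strand): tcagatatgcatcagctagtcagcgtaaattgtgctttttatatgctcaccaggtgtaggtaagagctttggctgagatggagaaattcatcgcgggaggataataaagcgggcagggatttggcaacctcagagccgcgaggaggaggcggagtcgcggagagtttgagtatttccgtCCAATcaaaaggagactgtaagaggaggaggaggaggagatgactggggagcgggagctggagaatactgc
PSAT1 (chr9:78296875-78297124, plus strand): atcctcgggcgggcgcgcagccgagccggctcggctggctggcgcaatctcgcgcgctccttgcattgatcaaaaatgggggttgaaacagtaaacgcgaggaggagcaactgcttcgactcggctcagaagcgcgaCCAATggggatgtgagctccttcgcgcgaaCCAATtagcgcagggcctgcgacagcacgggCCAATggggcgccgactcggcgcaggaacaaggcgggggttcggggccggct
MTHFD2 (chr2:74198365-74198614, plus strand): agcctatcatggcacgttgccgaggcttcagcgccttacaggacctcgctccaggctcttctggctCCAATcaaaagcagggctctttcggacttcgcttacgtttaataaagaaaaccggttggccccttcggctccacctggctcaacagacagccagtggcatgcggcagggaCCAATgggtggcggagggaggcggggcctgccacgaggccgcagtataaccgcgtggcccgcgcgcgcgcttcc
MTHFD1L (chr6:150866236-150866485, plus strand): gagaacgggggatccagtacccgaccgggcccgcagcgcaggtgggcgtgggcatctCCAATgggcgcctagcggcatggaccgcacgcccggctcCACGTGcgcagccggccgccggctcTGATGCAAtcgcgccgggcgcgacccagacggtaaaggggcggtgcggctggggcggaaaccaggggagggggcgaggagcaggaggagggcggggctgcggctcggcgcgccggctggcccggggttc
MTHFD1 (chr14:64388103-64388352, plus strand): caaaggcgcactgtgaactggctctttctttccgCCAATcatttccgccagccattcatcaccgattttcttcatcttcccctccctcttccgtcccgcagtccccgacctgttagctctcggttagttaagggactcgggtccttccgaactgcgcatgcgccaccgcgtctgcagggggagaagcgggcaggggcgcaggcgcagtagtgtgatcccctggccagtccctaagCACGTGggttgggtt
SHMT1 (chr17:18363551-18363800, minus strand): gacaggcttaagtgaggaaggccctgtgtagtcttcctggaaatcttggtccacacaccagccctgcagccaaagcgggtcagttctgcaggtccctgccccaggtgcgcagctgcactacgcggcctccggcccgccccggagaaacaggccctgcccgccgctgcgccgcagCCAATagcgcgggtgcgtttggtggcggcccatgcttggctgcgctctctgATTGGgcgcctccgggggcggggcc

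MTHFD1L was the only one of the 7 genes with TGATGNAA, in 2 of its 4 windows, which overlap and hold the same genomic site, and in the window shown its last base lies 122 bases before the start. CACGTG was found in MTHFD1L, 149 bases before the start, and in MTHFD1, 10 bases before it. CCAAT was found in 6 of the 7 genes, the exception being ALDH1L1, with 3 matches in PSAT1 at 109, 79 and 48 bases and 1 match in PHGDH at 67 bases. By window, 8 of the 11 windows of these genes (72.7%) held CCAAT. Those of MTHFD1L overlap and hold the same CCAAT site. Of 35116 promoter windows of all genes 3.14% held TGATGNAA, 6.34% held CACGTG and 32.0% held CCAAT. The latter was thus present both in enzymes that fell and in the cytosolic pair. A match describes these letters only, and no binding was measured. Bases after the start, introns and variants of the letters were not searched, so a gene without a match may hold a site there.

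In the serine synthesis pathway the first 2 enzymes fell and the last did not. PHGDH (ENSG00000092621, chr1:119648411-119744226, plus strand, coordinates here from GENCODE release 29 on GRCh38) read 17.8, 17.8 and 18.3 FPKM in Hep3B-Con replicates 1 to 3 and 12.3, 11.7 and 11.9 FPKM in Hep3B-KD replicates 1 to 3. The groups did not overlap, and the mean level of this entry enzyme was 33.4% lower in Hep3B-KD (log2 fold change -0.58, SE 0.0312, limma adjusted p = 1.1e-05). The share of all genes tested with all 3 Hep3B-KD values below all 3 Hep3B-Con values was 26.3%, and the share with all above was 40.7%.

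PSAT1 (ENSG00000135069, chr9:78297143-78330093, plus strand), the aminotransferase of the second step, was the most abundant of the 10 mRNAs. It read 317, 321 and 320 FPKM in Hep3B-Con and 183, 180 and 174 FPKM in Hep3B-KD. All Hep3B-KD libraries lay far below all Hep3B-Con libraries, with means of 319 ± 2.15 and 179 ± 4.30 FPKM (SD, n = 3 each). The log2 fold change was -0.83 (SE 0.0203, limma adjusted p = 5.02e-07), over 6326 to 12201 reads per library, and this SE was the smallest of the 8 enzymes tested. Only 5.26% of the genes tested had a fold change as low or lower.

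PSPH (ENSG00000146733, chr7:56011051-56051604, minus strand), the phosphatase that ends the pathway, went the other way by a small amount. It read 82.1, 84.2 and 82.2 FPKM in Hep3B-Con and 87.7, 90.0 and 86.7 FPKM in Hep3B-KD. The ranges did not overlap, but the log2 fold change of 0.09 (SE 0.0216, limma adjusted p = 0.0107) was below the median of all genes tested, and it turned to -0.01 (adjusted p = 0.604) after median centring, in which the median log ratio of each library is set to 0. The call was also lost with eBayes without the trend of variance on mean (0.09, adjusted p = 0.0628), while quantile normalization gave 0.24. The ratio of PSAT1 to PSPH in FPKM was 3.86 ± 0.0453 in Hep3B-Con and 2.03 ± 0.0441 in Hep3B-KD (SD, n = 3 each; two-sided exact permutation p = 0.1, the smallest that 3 against 3 libraries can give). This ratio was not planned, and it restates the changes of PSAT1 and PSPH given above. With both genes already apart in opposite directions, its p could only be the smallest.

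PSPH shares sequence with its pseudogene PSPHP1, so reads can move between them. Of the distinct 50-base stretches in PSPH transcripts 6.10% also occur in other genes, 73 of them in PSPHP1. PSPHP1 fell from 50.5 ± 1.98 to 29.5 ± 1.35 FPKM (SD, n = 3 each; log2 fold change -0.78, SE 0.0434, limma adjusted p = 1.29e-05), although its exons are short and it held only 13.2 RPM, reads scaled to the library total without gene length, in Hep3B-Con and 7.69 RPM in Hep3B-KD. PSPH held 229 and 243 RPM. With the reads of both added, the sum was 242 RPM in Hep3B-Con and 251 RPM in Hep3B-KD, a log2 difference of 0.05 (two-sided exact permutation p = 0.1). How the counting divided shared reads is not given in the sources used here, and the value of PSPH is uncertain by that much.

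Of the 10 enzymes, the 3 mitochondrial ones above the filter fell. SHMT2 (ENSG00000182199, chr12:57229327-57234935, plus strand), which cleaves serine in mitochondria, read 72.9, 75.5 and 75.5 FPKM in Hep3B-Con and 44.2, 42.6 and 43.3 FPKM in Hep3B-KD. Its mean was 41.9% lower (log2 fold change -0.78, SE 0.0243, limma adjusted p = 1.34e-06), with no overlap between groups. MTHFD2 (ENSG00000065911, chr2:74198562-74217565, plus strand), the dehydrogenase and cyclohydrolase of the next steps, read 32.1, 31.7 and 32.4 FPKM in Hep3B-Con and 19.6, 19.3 and 19.7 FPKM in Hep3B-KD. The libraries of a group differed by under 1 FPKM, and the log2 fold change was -0.71 (SE 0.0231, limma adjusted p = 1.57e-06).

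MTHFD1L (ENSG00000120254, chr6:150865549-151101887, plus strand), the synthetase that frees formate, had the largest fall of the 8 enzymes tested. It read 28.2, 28.4 and 29.4 FPKM in Hep3B-Con and 14.5, 14.0 and 13.8 FPKM in Hep3B-KD, means of 28.7 ± 0.671 and 14.1 ± 0.376 FPKM (SD, n = 3 each). That was 2.03-fold lower (log2 fold change -1.02, SE 0.0320, limma adjusted p = 1.39e-06), a fall that 3.58% of all genes tested matched or passed. Its place past the fold of 2 was narrow, since the adjusted calls with that fold went to 0 of the members with a pseudocount of 1, with quantile normalization and with libraries rescaled to the same FPKM sum. MTHFD1L is also in a gene list that the study drew in part from these same libraries, so its direction is not independent evidence.

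The cytosolic folate enzymes above the filter did not fall, whereas PHGDH and PSAT1 of cytosolic serine synthesis did. MTHFD1 (ENSG00000100714, chr14:64388031-64463457, plus strand), the trifunctional cytosolic enzyme, read 10.4, 10.4 and 10.3 FPKM in Hep3B-Con and 12.2, 12.2 and 11.7 FPKM in Hep3B-KD. The groups were apart, and the log2 fold change was 0.21 (SE 0.0323, limma adjusted p = 0.0013). After median centring MTHFD1 remained called, at 0.11 (adjusted p = 0.0234). SHMT1 (ENSG00000176974, chr17:18327860-18363563, minus strand), the cytosolic counterpart of SHMT2, read 10.3, 11.4 and 10.5 FPKM in Hep3B-Con and 12.1, 11.4 and 12.1 FPKM in Hep3B-KD. Hep3B-Con replicate 2 and Hep3B-KD replicate 2 differed by less than 0.1 FPKM. The log2 fold change of 0.14 (SE 0.0479, limma adjusted p = 0.0375) lost its call, though not its direction, when any of Hep3B-Con replicate 1, Hep3B-Con replicate 3, Hep3B-KD replicate 1 or Hep3B-KD replicate 3 was left out, with log2 fold changes from 0.11 to 0.13 and adjusted p from 0.103 to 0.107, and it was 0.04 (adjusted p = 0.506) with median centring.

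Both formyl-tetrahydrofolate dehydrogenases were at or near the limit of detection. ALDH1L2 (ENSG00000136010, chr12:105019784-105084577, minus strand) held 4, 9 and 18 reads in Hep3B-Con and 9, 2 and 5 in Hep3B-KD. The libraries overlapped, and the ratio of the summed reads, each divided by the reads of its group, was 0.549 for Hep3B-KD to Hep3B-Con, with a 95% exact interval of 0.280 to 1.03 that covers counting error only. Without the filter its log2 fold change was -0.28 (SE 0.289, limma adjusted p = 0.526), so no difference was detectable at this depth. ALDH1L1 (ENSG00000144908, chr3:126103562-126197994, minus strand) held 1 read in Hep3B-Con replicate 1, 1 read in Hep3B-KD replicate 3 and 0 in the other libraries. These counts are under a floor of 3 reads per library, and no fold is given. ALDH1L1, an abundant enzyme of normal liver, was thus not measurable in these Hep3B cells, whichever construct they carried.

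Because FPKM divides by all exon bases of a gene, the order of levels between enzymes depends on the length used. By FPKM the order in Hep3B-Con was PSAT1, PSPH, SHMT2, MTHFD2, MTHFD1L and PHGDH, all with separate ranges, then SHMT1 and MTHFD1, whose ranges overlapped, then ALDH1L2 and ALDH1L1. In Hep3B-KD the first 5 were in the same order, and MTHFD1, PHGDH and SHMT1 overlapped. PHGDH has 9217 exon bases in the gene against 2585 in its longest coding transcript. Divided by that transcript, the reads gave PHGDH a mean of 64.0 FPKM in Hep3B-Con and 42.6 in Hep3B-KD, the fourth of the 10 in both groups, and SHMT2 ranked above PSPH in Hep3B-Con and below it in Hep3B-KD. Changes between groups do not depend on this length.

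The balance between compartments was read from 3 ratios of a mitochondrial to a cytosolic enzyme within a library, with the ALDH1L pair left out for its low reads. SHMT2 to SHMT1 in FPKM was 7.07, 6.64 and 7.16 in Hep3B-Con and 3.66, 3.73 and 3.58 in Hep3B-KD. MTHFD1L to MTHFD1 was 2.72, 2.72 and 2.86 in Hep3B-Con and 1.19, 1.15 and 1.18 in Hep3B-KD. MTHFD2 to MTHFD1 was 3.10, 3.04 and 3.15 in Hep3B-Con and 1.61, 1.59 and 1.69 in Hep3B-KD. The groups were far apart in each ratio, and the log2 ratio in Hep3B-KD differed from that in Hep3B-Con by -0.92, -1.23 and -0.92. The ratios of MTHFD1L and MTHFD2 share MTHFD1 as their denominator, so they are not independent of each other. All of them restate the changes of the single genes given above. In each case the two-sided exact permutation p was 0.1, the smallest that 3 against 3 libraries can give. These ratios do not depend on how libraries are scaled to each other by a constant, since both genes of a pair are read in the same library.

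Over the 7 folate enzymes together, the mitochondrial ones (SHMT2, MTHFD2, MTHFD1L and ALDH1L2) made up 86.5 ± 0.349% of the summed FPKM in Hep3B-Con and 76.3 ± 0.0559% in Hep3B-KD (SD, n = 3 each; two-sided exact permutation p = 0.1). By library the share was 86.6%, 86.2% and 86.8% in Hep3B-Con and 76.4%, 76.3% and 76.4% in Hep3B-KD. The mitochondrial sum went from 135 ± 2.18 to 77.1 ± 1.27 FPKM, while the cytosolic sum was 21.1 ± 0.627 and 23.9 ± 0.353 FPKM. With the longest coding transcript as the length, the share was 82.5 ± 0.501% in Hep3B-Con and 70.6 ± 0.125% in Hep3B-KD.

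**Figure D1:**
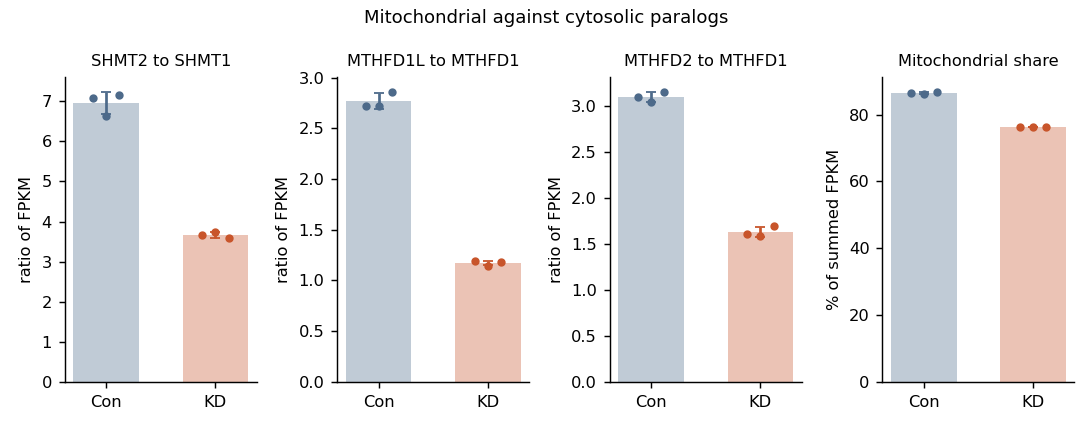
FPKM ratio of 3 mitochondrial enzymes to their cytosolic paralogs, and the percent of the summed FPKM of 7 folate enzymes in the mitochondrial ones. Bars are group means from 0, error bars SD, points the 3 libraries of Hep3B-Con (Con) and Hep3B-KD (KD). SHMT2 to SHMT1 goes from 6.96 to 3.66, MTHFD1L to MTHFD1 from 2.77 to 1.17, MTHFD2 to MTHFD1 from 3.09 to 1.63, and the share from 86.5% to 76.3%.

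The 5 enzymes that fell were called under every scaling of the libraries, as was MTHFD1, whereas the calls of PSPH and SHMT1 changed with it. Over 17 alternative settings the log2 fold change lay between -0.69 and -0.55 for PHGDH, between -0.94 and -0.61 for PSAT1, between -0.88 and -0.66 for SHMT2, between -0.81 and -0.66 for MTHFD2 and between -1.12 and -0.98 for MTHFD1L. Each of these genes was called lower in every one of the 17. Median centring moved the median of all genes from 0.11 to 0.01. Relative to the median of all genes, PSPH changed by -0.02, SHMT1 by 0.03 and MTHFD1 by 0.10 on the log2 scale.

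**Figure D2:**
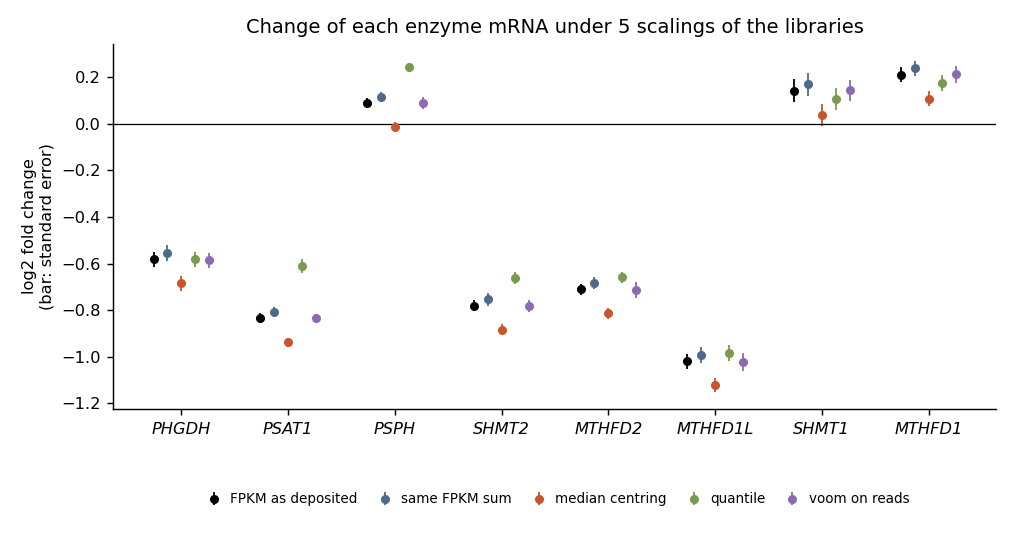
Log2 fold change, Hep3B-KD against Hep3B-Con, of the 8 enzymes above the filter under 5 ways to scale the libraries, with the standard error as bars. The 5 enzymes that fell stay between -1.12 and -0.55 under each scaling, and PSPH crosses 0 with median centring.

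The mRNAs of regulators known to act on these genes were lower as well. ATF4, the transcription factor of the amino acid response, read 210, 222 and 217 FPKM in Hep3B-Con and 128, 132 and 127 FPKM in Hep3B-KD (log2 fold change -0.74, SE 0.0252, limma adjusted p = 1.85e-06). MYC, a driver of nucleotide synthesis genes, read 96.2, 94.3 and 95.8 FPKM in Hep3B-Con and 51.4, 53.4 and 54.3 FPKM in Hep3B-KD (log2 fold change -0.85, SE 0.0247, limma adjusted p = 1.05e-06). NFE2L2, the factor of the oxidative stress response, had a smaller change from 31.6 ± 0.587 to 25.4 ± 0.816 FPKM (SD, n = 3 each; log2 fold change -0.32, limma adjusted p = 0.000164). All 3 had every Hep3B-KD value below every Hep3B-Con value, as did 26.3% of all genes tested. These are mRNA levels, and the protein and activity of the regulators are not shown by them. The part of any of these regulators in the fall of the enzymes was not tested.

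The wider serine and folate network did not move in one direction. Of 39 further genes of transport, folate handling, one-carbon use, methionine cycle and serine breakdown, 32 passed the filter, and 11 were called lower and 10 higher, against the background of 23.8% and 36.1%. Their median log2 fold change was 0.04. Levels and tests are given for genes with a fold of at least 1.5, and for some others the log2 fold change, the level or both.

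Among serine transport and glycine cleavage genes, 8 of 9 were tested, 4 were lower and 2 higher, with a median of -0.36. SLC1A5, an exchanger of neutral amino acids such as glutamine and serine, read 79.4, 73.4 and 74.7 FPKM in Hep3B-Con and 39.1, 46.2 and 41.0 FPKM in Hep3B-KD (log2 fold change -0.85, SE 0.0639, limma adjusted p = 4.57e-05). SLC1A4, a serine and alanine exchanger, went from 15.3 ± 0.690 to 9.59 ± 0.582 FPKM (SD, n = 3 each; log2 fold change -0.66, SE 0.0551, limma adjusted p = 7.21e-05). Both were lower in all Hep3B-KD libraries. The mitochondrial serine carriers SFXN1 and SFXN2 also fell, by 0.53 and 0.49 on the log2 scale, while SFXN3 of the same family was not called, at 0.06. GLDC and DLD of the glycine cleavage system rose by 0.27 and 0.35, against a median of 0.11 over all genes tested. GCSH of that system was not called, at -0.23, with 0.714 FPKM in Hep3B-Con and 0.593 FPKM in Hep3B-KD. AMT, also of that system, was under the filter, at 0.0099 FPKM in Hep3B-Con and 0.0975 FPKM in Hep3B-KD.

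Of the folate uptake and retention genes, 4 of 6 were tested, 2 lower and 1 higher, with a median of -0.28. FPGS, which adds the glutamate tail that keeps folate in the cell, went from 13.7 ± 1.64 to 8.60 ± 0.246 FPKM (SD, n = 3 each; log2 fold change -0.66, SE 0.0831, limma adjusted p = 0.000514). The plasma membrane folate carrier SLC19A1 fell by 0.54 on the log2 scale, while GGH, which removes the glutamate tail, was called higher at 0.12, close to the median of all genes.

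Genes of one-carbon use split within pathways. Of 12 genes 11 were tested, 3 lower and 5 higher, with a median of 0.24. The purine synthesis enzymes GART and ATIC fell by 0.50 and 0.45 on the log2 scale. MTRR, which reactivates methionine synthase, read 8.21, 9.02 and 8.28 FPKM in Hep3B-Con and 5.04, 4.74 and 5.46 FPKM in Hep3B-KD (log2 fold change -0.73, SE 0.0660, limma adjusted p = 0.000105). Methionine synthase itself, MTR, moved the other way, from 9.35 ± 0.248 to 13.9 ± 0.266 FPKM (SD, n = 3 each; log2 fold change 0.57). The log2 ratio of MTR to MTRR therefore went from 0.14 to 1.44, with no overlap between groups (two-sided exact permutation p = 0.1); MTR falls outside the fold of 1.5 and this pair was chosen after its values were seen.

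The mitochondrial dehydrogenases that take one-carbon units from choline breakdown rose. SARDH, for sarcosine, read 3.32, 3.01 and 3.12 FPKM in Hep3B-Con and 6.69, 6.31 and 7.04 FPKM in Hep3B-KD (log2 fold change 1.06, SE 0.0621, limma adjusted p = 1.56e-05), the only gene of the 32 past a fold of 2. With a pseudocount of 1, median centring and quantile normalization SARDH remained called, at 0.89, 0.96 and 0.92, under that fold. DMGDH, for dimethylglycine, read 1.06, 0.942 and 1.25 FPKM and 1.96, 2.07 and 2.27 FPKM (log2 fold change 0.90, SE 0.127, limma adjusted p = 0.000902), and stood at 0.57 with a pseudocount of 1. These mitochondrial genes thus moved against SHMT2, MTHFD2 and MTHFD1L. MTHFD2L, the paralog of MTHFD2, was at 0.819 ± 0.0518 FPKM in Hep3B-Con and 0.984 ± 0.0733 FPKM in Hep3B-KD (log2 fold change 0.24, limma adjusted p = 0.191), did not pass the test. It read -0.06 with quantile normalization and was called higher with eBayes without the trend (adjusted p = 0.0335).

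In the methionine cycle 7 of 9 genes were tested, with AHCY, which clears the spent methyl donor, and CBS, which draws homocysteine off, at log2 fold changes of -0.47 and -0.34, and BHMT2 and MAT2B called higher, at 0.48 and 0.22. Of the serine breakdown genes 2 of 3 were tested, SDSL and SRR, and limma called 0 of them, with 0 at an unadjusted p under 0.05 and 0 also by voom on the recovered reads.

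**Figure D3:**
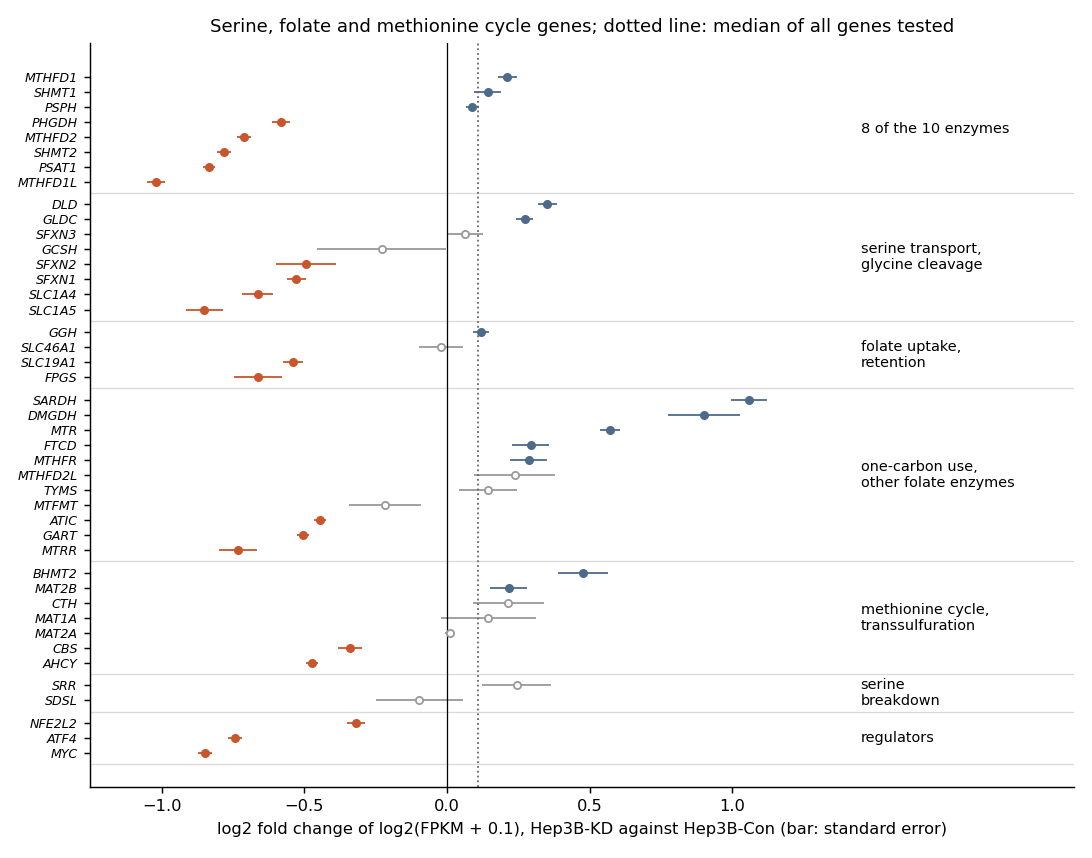
Log2 fold change, Hep3B-KD against Hep3B-Con, of the 8 enzymes, 32 further genes of the network and 3 regulators, with the standard error as bars. Filled orange points were called lower, filled blue points higher and open points were not called, and the dotted line is the median of all genes tested, 0.11. MTHFD1L at -1.02 and SARDH at 1.06 mark the ends.

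Patterns closest to PHGDH and MTHFD1L over the 6 libraries were sought among 7044 genes that averaged 5 FPKM or more, by the root mean square difference of log2(FPKM + 0.1) centred on Hep3B-Con. The closest to PHGDH were PRKAR2A at 0.0191, NAT10 at 0.0197 and VARS at 0.0198. The closest to MTHFD1L were PRMT1 at 0.0220, AGAP1 at 0.0244 and TFDP1 at 0.0270. With 2 groups of libraries far apart, a like pattern is mostly a like fold change, and PRMT1 went from 85.2 to 41.8 FPKM and PRKAR2A from 12.1 to 8.15 FPKM.

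Sequence shared with other transcripts bears on how well reads can be assigned. PHGDH and SHMT2 share 0% of their distinct 50-base stretches with other genes, MTHFD1L 0.174%, SHMT1 2.33%, MTHFD2 2.68%, MTHFD1 3.72% and PSAT1 4.62%, the last with the pseudogenes PSAT1P3 and PSAT1P4. Of the exon bases of MTHFD2 27.2% lie opposite those of SLC4A5, whose mean was 0.0392 FPKM, and 2.69% of those of SHMT1 lie opposite SMCR8 at 24.0 FPKM. For SHMT2 8.83% lie opposite AC137834.2, which is not in the expression table. For MTHFD1 8.06% lie opposite AL122035.2 at 0.321 FPKM. For ALDH1L2, itself near the limit of detection, 1.70% lie opposite C12orf45 at 0.627 FPKM. Whether reads were counted by strand is not given in the sources used here, so reads of such opposite genes cannot be told apart.

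A hairpin can act on other mRNAs through the seed of its guide strand. The site that pairs with bases 2 to 8 of the guide, GCCTTCA, was found in the longest 3′ UTR of 16.5% of 11220 tested genes, whose median log2 fold change was -0.02, against 0.11 for genes without it. Of the 10 enzymes PSPH and ALDH1L2 held 1 site each, and the 5 that fell held 0 sites in that UTR. The passenger strand and other parts of the transcripts were not searched, and whether the hairpin acted on any of these mRNAs directly was not tested.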

How the data were processed

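TruSeq mRNA libraries were read on an Illumina HiSeq. In the deposited table the authors gave FPKM, read numbers divided by gene length and library total, for 29908 Ensembl genes in 6 libraries. The submitters' processing notes name TopHat2 2.0.12, Bowtie2 2.0.6 and GRCh37; the counting tool and its strand setting are not given in the sources used here. All identifiers were found in GENCODE release 29 (GRCh38). The library totals were not given but recovered, by taking the smallest positive product of FPKM and exon length in a library as a single read. With the exon lengths of that release and these totals, 100% of the positive FPKM values came within 0.01 of whole reads. The reads assigned to genes were thus known, though not the full sequencing depth. Groups and replicate numbers came from the sample titles.

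The 14221 rows averaging at least 0.5 FPKM were tested as log2(FPKM + 0.1) with limma 3.58.1 (lmFit, eBayes with trend) in R 4.3.3, with Benjamini-Hochberg adjustment. The fit was tested on simulated reads at 2 values of the dispersion, the spread between libraries beyond counting error. At 0.01 it recovered 85.6% of 97 genes changed by a fold of 2, with 10 false calls. At 0.1 it recovered only 5.2% of 97 such genes, with 4 false calls. Few genes were changed in the simulation, whereas 59.9% were called in these data. Ratios and shares were compared by two-sided exact permutation tests over libraries. Where a symbol occurs more than once (382 rows), the row with the highest mean stood for it. A floor of 3 reads per library was used.

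The members and gene lists were chosen with earlier results of these data known. A pair of genes was left out of the lists and is not reported here. Named genes were the 10 members, DAGLA, ATF4, MYC, NFE2L2, MTHFD2L, up to 3 genes per direction and list with a fold of at least 1.5, and the 3 genes most like PHGDH and MTHFD1L. Further genes named with a log2 fold change only, PSPHP1, MTR, AMT and GCSH were named after their values were seen. Alternatives were no filter, a filter at 1 FPKM, a pseudocount of 1 or 0.01, same FPKM sum, median centring, quantile normalization, no trend, an ordinary linear model, voom on recovered reads, the replicate number as a block, and each library left out. PSPH with PSPHP1 reads added and the coding transcript length were chosen after seeing the data. The ratio of PSAT1 to PSPH was not among the planned ratios. Promoter windows are from RefSeq, GRCh38.p14. Python 3.11.15, pandas 2.3.3, scipy 1.17.1 and matplotlib 3.10.9 were used.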

Additional observations from a re-analysis of the deposited data

How the results depend on the processing

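The 5 enzymes called lower were called lower under all 17 alternatives. The number of enzymes called higher went from 3 to 1 with eBayes without the trend (PSPH and SHMT1 lost) and to 1 with median log ratio centring, and was 2 to 3 with a library left out. It was 2, with SHMT1 lost, with no filter, with an ordinary linear model and with quantile normalization. The enzymes lower with a fold of at least 2 went from 1 to 0 with a pseudocount of 1, to 0 with quantile normalization and to 0 with the same FPKM sum, and stayed at 1 with each library left out. PSPH reversed to -0.014 with median centring, and MTHFD2L, called only with eBayes without the trend, reversed to -0.0565 with quantile normalization. The causes were not tested. Lower and higher counts of the further pathway genes stayed at 11 to 13 and 8 to 11. The mitochondrial share differed by -11.97 to -8.94 percentage points and the log2 paralog ratios by -1.24 to -0.77 over their alternatives. Replicate numbers did not pair the samples: correlations of same-numbered deviations were -0.0134, -0.0656 and -0.0011. With the replicate block 5 enzymes were lower and 2 higher, SHMT1 having an adjusted p of 0.0936, and 7919 genes were called in all. Depth limits ALDH1L1 and ALDH1L2, and 1 hairpin, 1 cell line and 3 libraries per group limit every result.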
